A study of Mus musculus with 24 samples.

Results

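Astrocytes sorted from the olfactory bulb of control mice were compared with astrocytes sorted from the thalamus of control mice, by bulk RNA-seq of 3 libraries from each region. These 6 libraries were chosen by their tissue and genotype labels from the 24 of a series that also covered hippocampus, cortex and mice with a conditional knockout of Nfix. Genes entered where a library value of 10 or more was reached in at least 3 of the 6 libraries, which 9051 of 24394 genes did. The third highest value was 10.1 in the gene just inside this limit and 9.93 in the gene just outside it. Of the genes inside, 4350 reached 10 in all 6 libraries, 223 entered through the 3 olfactory bulb libraries alone and 54 through the 3 thalamus libraries alone. The groups are named olfactory bulb WT and thalamus WT, after the genotype label of the mice, whose titles call them controls. The sources used here do not give strain, age, sex, how astrocytes were marked for sorting, the Cre driver or whether each library came from its own animal. P-values therefore measure no more than the spread of these 6 libraries, and that spread may be technical.

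Astrocytes take up glutamate and GABA, buffer potassium, supply glutamine to neurons and secrete proteins that build the extracellular matrix and shape synapses. Those of the olfactory bulb arise from the telencephalon and sit among local interneurons that are renewed through life, while those of the thalamus arise from the diencephalon and surround relay neurons that project to the cortex. In the bulb they share the outer layer with olfactory ensheathing glia, a related cell that wraps incoming olfactory axons and also makes Fabp7. The thalamus is crossed by myelinated tracts and lies beside the ventricles and their choroid plexus.

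Levels are given as normalized reads, that is, read numbers per gene after division by a size factor for each library. Library totals ran from 8924903 to 14931162 reads, with 8817 to 11568 genes above 0. A counting floor of 3 reads lay between 0.201 and 0.337 CPM, the reads of a gene scaled to a common library total. It covers counting error only, since no molecular identifiers are described that would separate molecules from their copies. Pearson correlations of log2 values were 0.599 to 0.631 among olfactory bulb libraries, 0.500 to 0.539 among thalamus libraries and 0.475 to 0.535 between the regions. In any pair of libraries, 12.9 to 23.7% of the genes with at least 50 normalized reads in 1 of them stood at 0 in the other. Ribosomal RNA assigned to Rn45s made up 8.93 to 12.7% of each library.

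Astrocyte markers were abundant in all 6 libraries. The summed level of 10 astrocyte markers was 54805, 45122 and 52013 CPM in olfactory bulb and 51409, 33417 and 45068 CPM in thalamus, with none at 0 in either region (exact two-sided permutation test, p = 0.2, where 3 libraries against 3 cannot go below 0.1). Slc1a2, the main glutamate transporter of astrocytes, alone took 2.00 to 3.27% of the reads of a library. Thalamus WT replicate 2 stood apart from the others. Ttr, which encodes the transthyretin made by choroid plexus epithelium, took 9.22% of its reads, against 0.0211% in replicate 1 and 0.717% in replicate 3, and at most 0.00155% in olfactory bulb. The 10 ependymal and choroid plexus markers summed to 95093 CPM in that library, against 218 and 7364 CPM in the other thalamus libraries and 59.8 to 134 CPM in olfactory bulb. Enpp2, another choroid plexus transcript, followed with 299724 normalized reads in replicate 2 against 3363 and 18276. Their part in other differences was not tested, and values without this library are given where they bear on a call.

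Transcripts of other cell types also differed between the regions. The 12 markers listed for olfactory ensheathing glia summed to 4355, 4876 and 4227 CPM in olfactory bulb and to 607, 237 and 343 CPM in thalamus, where 9 of the 12 were at 0 in every library. Fabp7 made up most of this sum in olfactory bulb. Neuroblast and interneuron markers summed to 154 to 328 CPM in olfactory bulb and 68.0 to 125 CPM in thalamus. Oligodendrocyte markers summed to 3850 to 4879 CPM in olfactory bulb and 7154 to 13065 CPM in thalamus. Mbp alone had a mean of 1333 of 4203 CPM in olfactory bulb and 6768 of 9726 CPM in thalamus. The regional difference of this sum thus lay mostly in Mbp. Fibroblast markers summed to 61.7 to 155 CPM in olfactory bulb and 1099 to 1989 CPM in thalamus. Stem cell and cycling markers, mainly Egfr, summed to 268 to 433 CPM in olfactory bulb and 76.8 to 177 CPM in thalamus. The groups did not overlap in these 5 sums or in that of the choroid plexus list (exact two-sided permutation test, p = 0.1 for each and 0.217 adjusted over 13 marker lists). They did overlap for neuron, oligodendrocyte precursor, microglia, endothelial and mural cell markers. Red blood cell markers stayed under 0.438 CPM.

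**Figure D1:**
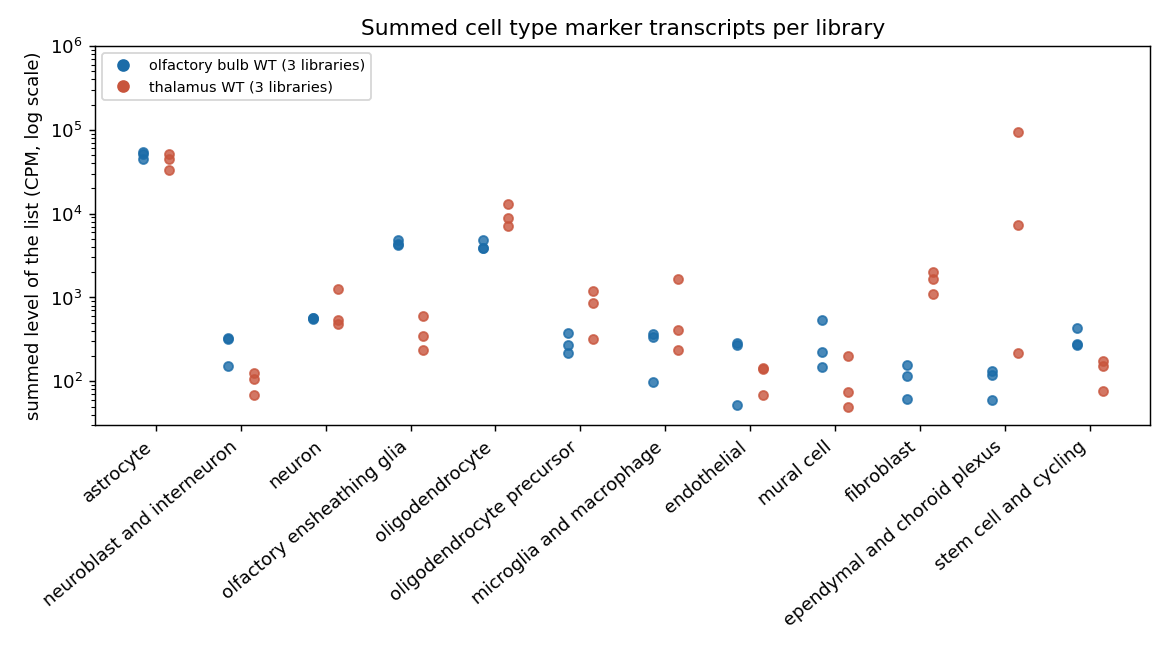
Summed transcripts of 12 cell type marker lists in CPM (log scale) for the 3 olfactory bulb WT libraries (blue) and the 3 thalamus WT libraries (red), 1 point per library. Ensheathing glia markers were 237 to 607 CPM in thalamus and 4227 to 4876 CPM in olfactory bulb, and 1 thalamus library stood at 95093 CPM for ependymal and choroid plexus markers.

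Olfactory bulb libraries held more RNA of a GABA-B receptor partner, of fatty acid binding protein 7 and of secreted and membrane proteins that organise the matrix and synapses, and thalamus libraries held more of the matrix protein Sparc, the retinoid enzyme Aldh1a1, the chaperone Clu, Igf2 and Mbp. In limma at a Benjamini-Hochberg adjusted p under 0.05, 80 of 9051 genes were called (0.884%), of which 51 were higher in olfactory bulb (0.563%) and 29 higher in thalamus (0.32%). At an unadjusted p under 0.05 there were 866 genes. The log2 differences, olfactory bulb minus thalamus on the log2(normalized reads + 10) scale, had a median of 5.11 (range 0.75 to 8.89) among the 51 and of -3.18 (range -6.67 to -0.92) among the 29. Over all 9051 genes the median was 0.23, and 5131 genes lay above 0 and 3920 below. The groups did not overlap in 50 of the 51 and 27 of the 29. Across all genes tested they did not overlap in 852 genes that were higher in olfactory bulb (9.41%) and in 463 that were higher in thalamus (5.12%).

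The number of calls moved with single libraries. Genes called higher in olfactory bulb numbered 9, 13 and 10 without olfactory bulb WT replicate 1, 2 or 3, and 45, 48 and 34 without thalamus WT replicate 1, 2 or 3. Genes called higher in thalamus numbered 12, 15 and 18 and then 18, 20 and 10 in the same order. It also moved with the model: on recovered reads of 5 libraries, edgeR called 21 and 6 genes and DESeq2 438 and 128. With the same filter applied again to 5 libraries, 8 genes higher in olfactory bulb (Kctd12, Chrdl1, Fabp7, Chst2, Ncan, Ptn, Adam23 and Adgrb1) and 5 higher in thalamus (Aldh1a1, Mbp, Igf2, Clu and Sparc) were called whichever library was left out. These 13 genes are described first. None of the 80 called genes changed direction in any of 30 alternative analyses. The genes were picked on these same libraries, mostly with groups that did not overlap. Leaving out a library cannot turn the direction of such a gene, so this count is no measure of stability.

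**Figure D2:**
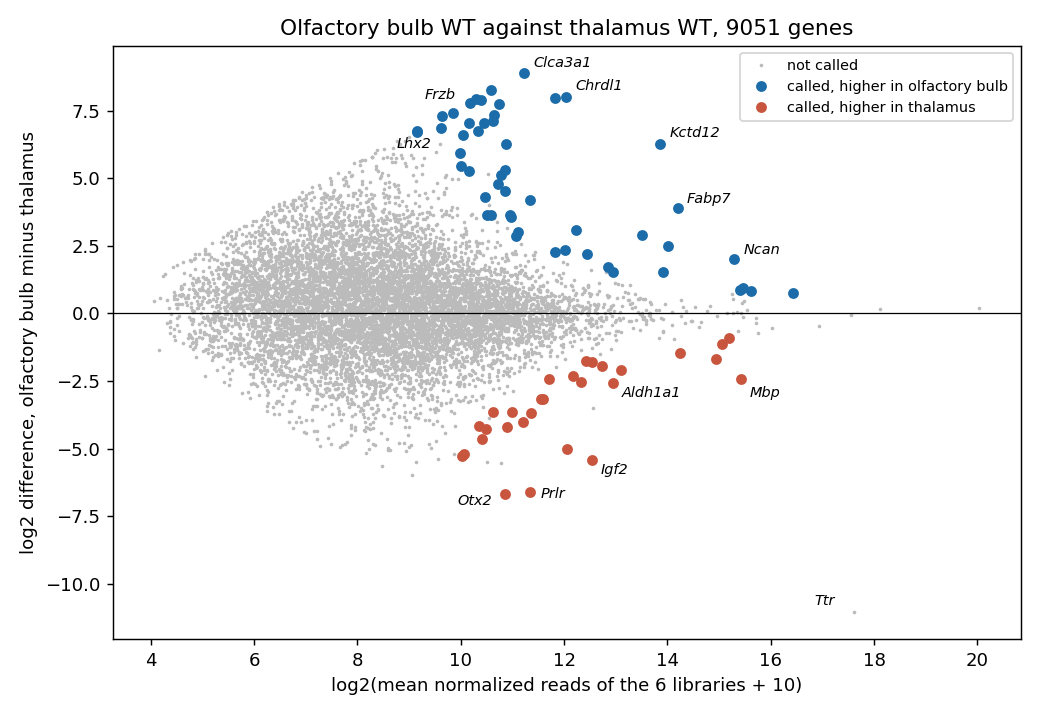
The log2 difference of each of 9051 genes (vertical axis, olfactory bulb minus thalamus) against its mean level over the 6 libraries (horizontal axis, log2). Blue points are the 51 genes called higher in olfactory bulb and red points the 29 called higher in thalamus; Ttr, at -11.05, was not called.

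Kctd12, an auxiliary subunit that binds GABA-B receptors and sets how fast they desensitise, stood at 28422, 32016 and 27811 normalized reads in olfactory bulb and at 484, 262 and 421 in thalamus. Every olfactory bulb library was far above every thalamus library, and the means differed 75.7-fold (log2 difference 6.25, SE 0.54, limma, adjusted p = 1.48e-26). Kctd12 (chromosome 14, 102976581 to 102982637, minus strand, GRCm38 as for all positions here) is annotated with 1 exon that overlaps exons of Mir5130 and, on the opposite strand, of Gm26778. Without knowledge of the strand setting, reads of Kctd12 and Gm26778 cannot be told apart.

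Fabp7, the brain fatty acid binding protein of radial glia, astrocytes and ensheathing glia (chromosome 10, 57784881 to 57788450, plus strand), held 38734, 36475 and 30686 normalized reads in olfactory bulb and 2645, 2078 and 2379 in thalamus. It was well expressed in both regions and 14.9-fold higher in olfactory bulb (log2 difference 3.89, SE 0.37, limma, adjusted p = 1.8e-21). Adgrb1, an adhesion receptor that binds dying cells and acts at synapses (chromosome 15, 74516195 to 74589465, plus strand), held 7635, 8214 and 9935 in olfactory bulb and 807, 1045 and 1184 in thalamus. The lowest olfactory bulb library was several times above the highest thalamus library (log2 difference 3.08, SE 0.57, limma, adjusted p = 4.65e-05).

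Ncan, Chst2 and Ptn are a matrix proteoglycan, an enzyme that sulfates glycans and a secreted growth factor. Neurocan, encoded by Ncan, is a chondroitin sulfate proteoglycan of the brain matrix (chromosome 8, 70093085 to 70120873, minus strand). Its level was 64298, 65440 and 62921 normalized reads in olfactory bulb and 15718, 17052 and 15260 in thalamus. The libraries of a region were close to each other, and the means differed 4.01-fold (log2 difference 2.00, SE 0.24, limma, adjusted p = 3.44e-13). Chst2, which adds sulfate to N-acetylglucosamine in glycans (chromosome 9, 95399292 to 95406722, minus strand), held 26091, 17697 and 17491 in olfactory bulb and 1987, 2584 and 3661 in thalamus. Ptn encodes pleiotrophin, a secreted growth factor that binds these proteoglycans and the receptor phosphatase Ptprz1 (chromosome 6, 36714929 to 36810220, minus strand), and held 20366, 31719 and 31624 in olfactory bulb and 8418, 3841 and 3637 in thalamus. Neither gene's groups overlapped, with log2 differences of 2.91 (SE 0.40) for Chst2 and 2.48 (SE 0.34) for Ptn (limma, adjusted p = 8.81e-10 for each).

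Chrdl1 and Adam23 were nearly absent from the thalamus libraries. Chrdl1, a secreted astrocyte protein known to mature glutamatergic synapses in mouse (chromosome X, 143285674 to 143394262, minus strand), held 10538, 7608 and 6948 normalized reads in olfactory bulb and 0.993, 73.2 and 27.2 in thalamus (log2 difference 7.99, SE 1.16, limma, adjusted p = 6.68e-09). Adam23, a membrane protein that binds the synaptic ligand Lgi1 (chromosome 1, 63445891 to 63596276, plus strand), held 8816, 6675 and 6001 in olfactory bulb and 0, 0 and 220 in thalamus (log2 difference 7.96, SE 1.23, limma, adjusted p = 9.51e-08). In both, the thalamus libraries varied many-fold among themselves at a low level, and the Adam23 difference ranged from 7.21 to 9.47 as libraries were left out in turn.

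In the other direction, Mbp encodes myelin basic protein of oligodendrocytes (chromosome 18, 82475146 to 82585637, plus strand). It held 11576, 16763 and 12531 normalized reads in olfactory bulb and 49492, 87399 and 85832 in thalamus (log2 difference -2.42, SE 0.24, limma, adjusted p = 2.49e-19). It was present in every library and 5.45-fold higher in thalamus. Of 13 oligodendrocyte markers that passed the filter, 11 were below 0 and 1 was called, with a median of -0.96. Bcas1, an oligodendrocyte gene of early myelination, was called with 163, 311 and 748 against 6930, 2473 and 5182, and Tubb4a, a tubulin abundant in oligodendrocytes, with 747, 3123 and 1038 against 3930, 12515 and 9525. Bcas1 was called in 4 of the 6 repeats without 1 library and Tubb4a in 3. The part of oligodendrocyte transcripts in these differences was not tested. In bulk libraries, fewer cells of a type and less RNA per cell cannot be told apart.

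Igf2, an insulin-like growth factor made in brain mainly by leptomeninges and choroid plexus, held 484, 69.3 and 443 normalized reads in olfactory bulb and 7734, 15951 and 11010 in thalamus. No library of either region came near the other region (log2 difference -5.41, SE 0.71, limma, adjusted p = 7.27e-11). Igf2 was among the 8 fibroblast markers. The 6 of these that passed the filter were below 0, with a median of -3.96, but 2 of them (Col1a2 and Slc6a13) had passed through thalamus alone, and Igf2 was the member called. Dcn, a fibroblast proteoglycan, had 1150, 915 and 39.6 against 2419, 2791 and 3662 and was not called (limma, adjusted p = 0.0666). The exons of Igf2 (chromosome 7, 142650766 to 142666816, minus strand) overlap those of Igf2os on the other strand. The part of fibroblast and meningeal transcripts in the Igf2 difference was not tested. The call held without thalamus WT replicate 2.

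Sparc, Aldh1a1 and Clu are expressed by astrocytes. The part of transcripts from other cell types in their differences was not tested. Sparc, a secreted matrix protein that limits synapse formation (chromosome 11, 55394500 to 55423183, minus strand), held 17268, 11513 and 16068 normalized reads in olfactory bulb and 50214, 36762 and 55833 in thalamus (log2 difference -1.67, SE 0.26, limma, adjusted p = 1.12e-07). Its relative Sparcl1 gave -0.05 (SE 0.14, limma, adjusted p = 0.95). Aldh1a1, which oxidises retinaldehyde to retinoic acid and can also make GABA from putrescine (chromosome 19, 20492715 to 20643465, plus strand), held 2613, 2405 and 1787 in olfactory bulb and 15746, 10173 and 14691 in thalamus. The highest olfactory bulb library was far under the lowest thalamus library (log2 difference -2.56, SE 0.45, limma, adjusted p = 8.62e-06). Clu, the secreted chaperone clusterin (chromosome 14, 65968483 to 65981547, plus strand), held 9869, 12501 and 8627 against 27454, 25366 and 32744 (log2 difference -1.47, SE 0.30, limma, adjusted p = 0.000564). These groups did not overlap either.

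**Figure D3:**
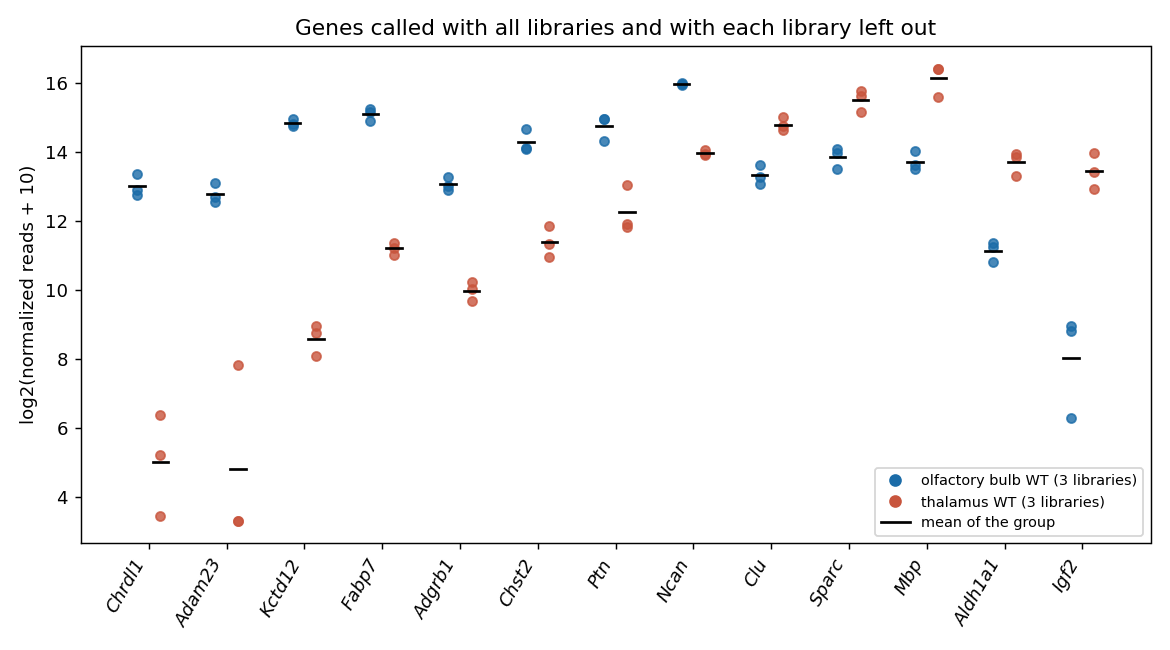
Levels of the 13 genes called with all 6 libraries and with each library left out, as log2(normalized reads + 10), 1 point per library and a black line at the mean of each group of 3. The 8 genes on the left are higher in olfactory bulb WT (blue) and the 5 on the right higher in thalamus WT (red), with no overlap between the points of a gene.

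Nfix, the gene the series is built on, belongs to the NFI family, whose proteins bind the sequence TTGGC and a longer palindromic form in which GCCAA follows after any 5 bases. The promoters of Fabp7, Ncan and Sparc are shown as examples with and without TTGGC among the 13 genes, Fabp7 being a known NFI target in glioma cells. Each is 300 bases of RefSeq sequence (GRCm38.p6), 250 before and 50 after the start site, read 5′ to 3′ on the gene's strand, with TTGGC in capitals. They lie at chr10:57784673-57784972 (plus), chr8:70120795-70121094 (minus) and chr11:55420031-55420330 (minus). Capitals mark matches in the printed strand, and both strands were searched.
Fabp7: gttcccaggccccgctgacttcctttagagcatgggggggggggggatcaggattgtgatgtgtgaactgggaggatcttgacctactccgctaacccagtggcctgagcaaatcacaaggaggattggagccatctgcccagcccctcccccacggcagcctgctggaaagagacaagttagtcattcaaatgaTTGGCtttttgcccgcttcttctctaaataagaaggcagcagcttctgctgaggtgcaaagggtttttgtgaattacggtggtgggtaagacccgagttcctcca
Ncan: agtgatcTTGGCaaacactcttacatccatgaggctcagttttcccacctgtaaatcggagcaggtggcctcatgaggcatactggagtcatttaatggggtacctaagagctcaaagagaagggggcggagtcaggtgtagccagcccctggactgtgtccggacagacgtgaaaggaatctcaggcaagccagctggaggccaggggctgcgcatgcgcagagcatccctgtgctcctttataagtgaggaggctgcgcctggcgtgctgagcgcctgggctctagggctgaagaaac
Sparc: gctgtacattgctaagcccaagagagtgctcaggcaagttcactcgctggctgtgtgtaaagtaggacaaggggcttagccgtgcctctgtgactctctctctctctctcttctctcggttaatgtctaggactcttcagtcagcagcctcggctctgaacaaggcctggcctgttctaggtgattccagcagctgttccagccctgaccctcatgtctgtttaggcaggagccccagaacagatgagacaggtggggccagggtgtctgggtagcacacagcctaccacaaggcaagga
Fabp7 and Ncan had 1 match each and Sparc none. Of the 8 olfactory bulb genes among the 13, 6 had a promoter at hand and only these 2 held TTGGC (33.3%), while Kctd12, Chst2, Ptn and Adam23 did not. Of the 5 thalamus genes, 3 had a promoter and 1, Aldh1a1, held it. A promoter was at hand for 37 of the 51 genes higher in olfactory bulb and 21 of the 29 higher in thalamus, and 16 (43.2%) and 11 (52.4%) of them held TTGGC on either strand. Among 27025 genes with a promoter, 50.4% did. The longer form was in 0 called genes and in 12 of all genes. A match is a description of the letters and not a site of binding.

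Among the pathway lists, that of extracellular matrix and synapse factors held the most calls. The lists were chosen with earlier results of these data known, so their order by calls is a description and no test. Of 28 members that passed the filter, 6 were called higher in olfactory bulb (Chrdl1, Ncan, Hapln1, Ptn, Ptprz1 and Adam23) and 1 higher in thalamus (Sparc). The list had 16 members above 0 and 12 below, with a median of 1.12 that became -0.11 without olfactory bulb WT replicate 3. Over all 9051 genes tested, 0.563% were called higher in olfactory bulb and 0.32% higher in thalamus, and 56.7% lay above 0. The split of this list above and below 0 was thus near that of all genes. The same shares are the background for the other lists. Hapln1, a link protein that ties proteoglycans to hyaluronan, held 4230, 4633 and 1287 normalized reads in olfactory bulb and 0.993, 0 and 12.8 in thalamus (log2 difference 7.76, SE 1.64, limma, adjusted p = 0.0011). Ptprz1, the pleiotrophin receptor, held 80680, 47054 and 64114 against 49630, 26916 and 32405. Its groups overlapped, although the difference of 0.83 (SE 0.21, limma, adjusted p = 0.018) passed. Without olfactory bulb WT replicate 1 or 2 the Hapln1 call was lost, and Ptprz1 was called in 2 of the 6 repeats without 1 library. Prelp, a leucine-rich matrix protein outside the list, went the other way with 687, 238 and 586 against 1397, 6032 and 8940.

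The glutamate genes that were called were higher in olfactory bulb. Of 20 members of the glutamate list that passed the filter, 15 were above 0, 4 were called higher in olfactory bulb and none higher in thalamus, with a median of 0.92. Glul, the glutamine synthetase of astrocytes, held 60589, 52686 and 63487 normalized reads in olfactory bulb and 45699, 24306 and 25655 in thalamus (log2 difference 0.94, SE 0.22, limma, adjusted p = 0.0048). Slc1a3, the glutamate transporter GLAST, held 53565, 54402 and 57360 against 42234, 18511 and 34191 (log2 difference 0.88, SE 0.22, limma, adjusted p = 0.016). These differences were under 2-fold, with groups that did not overlap. Glul was called in 2 of the 6 repeats without 1 library and Slc1a3 in 1, with 0.54 for Slc1a3 without thalamus WT replicate 2. Slc1a2 was not called, at 344416, 261055 and 301127 against 294210, 245137 and 259022 (log2 difference 0.18, SE 0.12, limma, adjusted p = 0.699). The receptor subunits Gria2 (3510, 4463 and 2468 against 1392, 32.1 and 1247) and Grin3a (1630, 6275 and 1716 against 545, 0 and 1625) were called. Without thalamus WT replicate 2 their differences went from 3.01 to 1.35 and from 3.65 to 1.45. Leaving out 1 library at a time, Gria2 was called in 0 and Grin3a in 1 of the 6 repeats. Glul exons overlap those of Teddm2 on the other strand.

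GABA genes moved in both directions. Of 12 GABA receptor genes that passed, Kctd12 was called higher in olfactory bulb and Gabbr1 higher in thalamus. Gabbr1, the GABA-B receptor subunit that binds GABA, held 3944, 2134 and 2415 normalized reads in olfactory bulb and 15269, 8169 and 9143 in thalamus. Its groups did not overlap (log2 difference -1.93, SE 0.45, limma, adjusted p = 0.0048), and the call was lost without olfactory bulb WT replicate 2 or 3 or thalamus WT replicate 1. Gabbr2, the partner subunit, gave -1.86 (SE 0.69, limma, adjusted p = 0.27). Gabrg3, a GABA-A subunit, held 1437, 1369 and 44.1 in olfactory bulb and 0 in all 3 thalamus libraries, and was not called (limma, adjusted p = 0.184). Of 10 genes of GABA transport and metabolism that passed, Glul and Aldh1a1 were called. The GABA transporter Slc6a11 held 41781, 46412 and 70042 against 43556, 26973 and 45093 (log2 difference 0.45, SE 0.22, limma, adjusted p = 0.475). Slc6a13, a GABA transporter of meninges, was at 0 in olfactory bulb and at 560, 176 and 2421 in thalamus, at least 1164-fold higher there against a floor of 3 reads over the group, and missed the threshold (limma, adjusted p = 0.125).

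None of 13 purinergic genes that passed the filter was called. Among them 6 were above 0 and 7 below, with a median of -0.01. Entpd1, the ectonucleotidase CD39, held 1179, 1436 and 450 normalized reads in olfactory bulb and 0.993, 0 and 26.4 in thalamus (log2 difference 5.86, SE 1.83, limma, adjusted p = 0.106). Its groups did not overlap, yet it missed the threshold. Enpp2, which makes lysophosphatidic acid, gave -2.79 (SE 1.75, limma, adjusted p = 0.73), and -1.03 without thalamus WT replicate 2.

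Calls among astrocyte identity genes went in both directions. Of 31 identity genes in the table, all of which passed the filter, 10 were above 0 and 21 below, with a median of -0.27. Slc1a3 and Glul were called higher in olfactory bulb, and Clu, Agt and Atp1b2 higher in thalamus. Agt, the angiotensinogen precursor known in mouse as a mark of astrocytes outside the telencephalon, held 44.8, 3358 and 44.1 normalized reads in olfactory bulb and 7412, 10279 and 4499 in thalamus. A single olfactory bulb library, replicate 2, came close to the thalamus range (log2 difference -5.02, SE 0.84, limma, adjusted p = 6.28e-06), and the call was lost without thalamus WT replicate 2. Atp1b2, a subunit of the astrocyte sodium pump, held 23658, 19534 and 21321 against 44321, 52363 and 43769 (log2 difference -1.12, SE 0.24, limma, adjusted p = 0.0016), and missed the threshold without olfactory bulb WT replicate 3. Ndrg2, an abundant astrocyte gene, gave -0.92 (SE 0.23, limma, adjusted p = 0.016) and was called in 1 of the 6 repeats without 1 library. Gja1, the gap junction protein connexin 43, gave -0.17 (SE 0.32, limma, adjusted p = 0.926). Gfap, the intermediate filament, held 1655, 1523 and 3180 against 4193, 5291 and 925. Its groups overlapped widely (log2 difference -0.45, SE 0.63, limma, adjusted p = 0.898).

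Among regional transcription factors, Lhx2 and Otx2 were called. Lhx2, a LIM homeobox factor of the telencephalon, was the 1 call among 16 telencephalic factors that passed, of which 9 were above 0. It held 1568, 3842 and 1374 normalized reads in olfactory bulb and 23.8, 0.823 and 0 in thalamus (log2 difference 7.04, SE 1.69, limma, adjusted p = 0.0074), and the call was lost when any 1 of the olfactory bulb libraries was left out. Meis2, another homeobox factor, held 1154, 1025 and 297 against 155, 0 and 10.2. It had no overlap between groups and missed the threshold (log2 difference 4.48, SE 1.75, limma, adjusted p = 0.322). Otx2 was the 1 call among 9 diencephalic factors that passed, with 7.61, 0.738 and 4.52 against 349, 9862 and 814 (log2 difference -6.67, SE 1.78, limma, adjusted p = 0.027). Its level was highest in thalamus WT replicate 2. The gene missed the filter when any 1 thalamus library was left out and the threshold when any 1 olfactory bulb library was, so no such repeat called it. Otx2 is also made by choroid plexus, whose part was not tested. Tcf7l2, a Wnt effector typical of the thalamus, held 1651, 1915 and 2056 against 2338, 625 and 2879 (log2 difference 0.21, SE 0.71, limma, adjusted p = 0.967). Its direction turned without thalamus WT replicate 2, at -0.47, and in DESeq2, at -0.0079.

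None of the 4 NFI factors was called. Nfix itself held 2360, 2431 and 2552 normalized reads in olfactory bulb and 2941, 3641 and 2829 in thalamus. All 3 thalamus libraries lay above all 3 olfactory bulb libraries by a small margin, with a standard error set mainly by genes of like abundance (log2 difference -0.35, SE 0.59, limma, adjusted p = 0.919). Nfia gave 0.03 (SE 0.41) and Nfib 0.09 (SE 0.47), and both turned direction in some of the alternatives. Nfic gave 0.84 (SE 1.01; limma, adjusted p from 0.881 to 0.994 for the 3 genes).

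Of 14 Notch genes that passed, Dner, a Notch ligand, was called with 2439, 3432 and 5549 against 392, 460 and 651 (log2 difference 2.85, SE 0.78, limma, adjusted p = 0.037), in 1 of the 6 repeats without 1 library as well. The Wnt, Hedgehog, ephrin, serine and glycine, cholesterol, glycolysis, gap junction, neuromodulator receptor, reactive astrocyte and glial transcription factor lists had 0 calls. Within them, Efnb2 (3046, 1385 and 176 against 0, 7.4 and 0), the Wnt inhibitor Apcdd1 (2458, 812 and 977 against 0, 74 and 0) and the glycine decarboxylase Gldc (1322, 1364 and 2076 against 602, 0 and 11.1) missed the threshold, with adjusted p of 0.0707, 0.0625 and 0.0707 in limma. Dio2, which activates thyroid hormone, was 15839, 7308 and 8775 against 3556, 2165 and 5625 (limma, adjusted p = 0.056). Of 40 cytosolic ribosomal protein genes, 33 lay below 0 and none was called, with a median of -0.74. Dissociation stress genes had 20 members that passed, 0 calls and a median of -0.37 whose sign turned without some libraries.

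Of the genes called higher in olfactory bulb, 11 stood at 0 in all 3 thalamus libraries and passed the filter through the olfactory bulb alone. Clca3a1, a secreted regulator of chloride conductance, held 4028, 4630 and 5726 normalized reads in olfactory bulb, at least 5393-fold above the floor of 3 reads over the thalamus group (limma, adjusted p = 2.08e-05). It has a close paralog, Clca3a2, so the assignment of its reads is uncertain. Prrg3, a membrane protein with a vitamin K-dependent domain, held 2549, 3739 and 2902, at least 3446-fold above that floor. The ensheathing glia markers Frzb, a secreted Wnt antagonist, with 1810, 2822 and 2812, Npy, a neuropeptide, with 1089, 3079 and 3835, and Mybpc1, a myosin-binding protein, with 553, 1329 and 1473 were also called. Other ensheathing glia markers were uneven in olfactory bulb: Ngfr held 1745, 272 and 0, and Foxd3 0, 81.9 and 7.92. Of the 12 markers, 7 passed the filter. Frzb, Npy and Mybpc1 did so through olfactory bulb alone, and Fabp7 was the 1 call that had reads in thalamus. The part of ensheathing glia in the Fabp7 difference was not tested.

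Prlr, the prolactin receptor, was the 1 gene called higher in thalamus with all olfactory bulb libraries at 0. It held 219, 15002 and 265 in thalamus, so replicate 2 carried nearly all of it, and it was no longer called once any 1 library was left out (limma, adjusted p = 0.049 with all 6). Ttr held 163, 0 and 1.13 against 2265, 1130250 and 71900. Its groups did not overlap and its thalamus libraries spanned a wide range (log2 difference -11.05, SE 2.56, limma, adjusted p = 0.261). Degrees of freedom differed between genes in this model, so p does not follow from the difference and SE alone. Csf1r, the receptor of microglia and macrophages, was called with 28.7, 120 and 452 against 1875, 2594 and 2728, while P2ry12, the microglial purinergic receptor, held 121, 1076 and 793 against 0, 59.2 and 3412. Csf1r was called in 1 of the 6 repeats without 1 library.

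The same genes can be set beside the other control regions of the series. By mean log2 level, olfactory bulb was the highest of the 4 regions for 48 of the 51 genes and thalamus the lowest for 31, and thalamus was the highest for 25 of the 29 and olfactory bulb the lowest for 17. The choice of genes on these 2 regions favours such an order. The cortex means include cortex WT replicate 3, and the counts were not made without it. For Chst2, cortex WT replicate 3 held 34.0 normalized reads, against 26949 and 25702 in the other cortex libraries and 17491 to 26091 in olfactory bulb. Such a gene can rank highest in olfactory bulb through that library. Hippocampus and cortex took different places by gene. For Kctd12 the hippocampus held 693, 415 and 1423 normalized reads and the cortex 709, 836 and 7004. All were under the olfactory bulb libraries, with cortex WT replicate 3 well above the rest. Fabp7 was likewise near the thalamus level in hippocampus (2675, 2189 and 3762) and cortex (1724, 1619 and 870). Chrdl1 and Hapln1, by contrast, were present in hippocampus (759, 1671 and 4116 for Chrdl1; 1787, 3489 and 3777 for Hapln1) and cortex (6543, 3965 and 6687; 3769, 2816 and 893), and low in thalamus. Lhx2 was also in all 3 telencephalic regions, with 2115, 2210 and 3890 in hippocampus and 2205, 4065 and 16732 in cortex. Clu held 40248, 33611 and 31486 in hippocampus, all above the olfactory bulb libraries. The hippocampus mean of Clu was also above its thalamus mean. Cortex WT replicate 3 stood apart, with 880569 normalized reads of Mbp against 20788 and 23279 in the other cortex libraries, so its values are given for description.

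**Figure D4:**
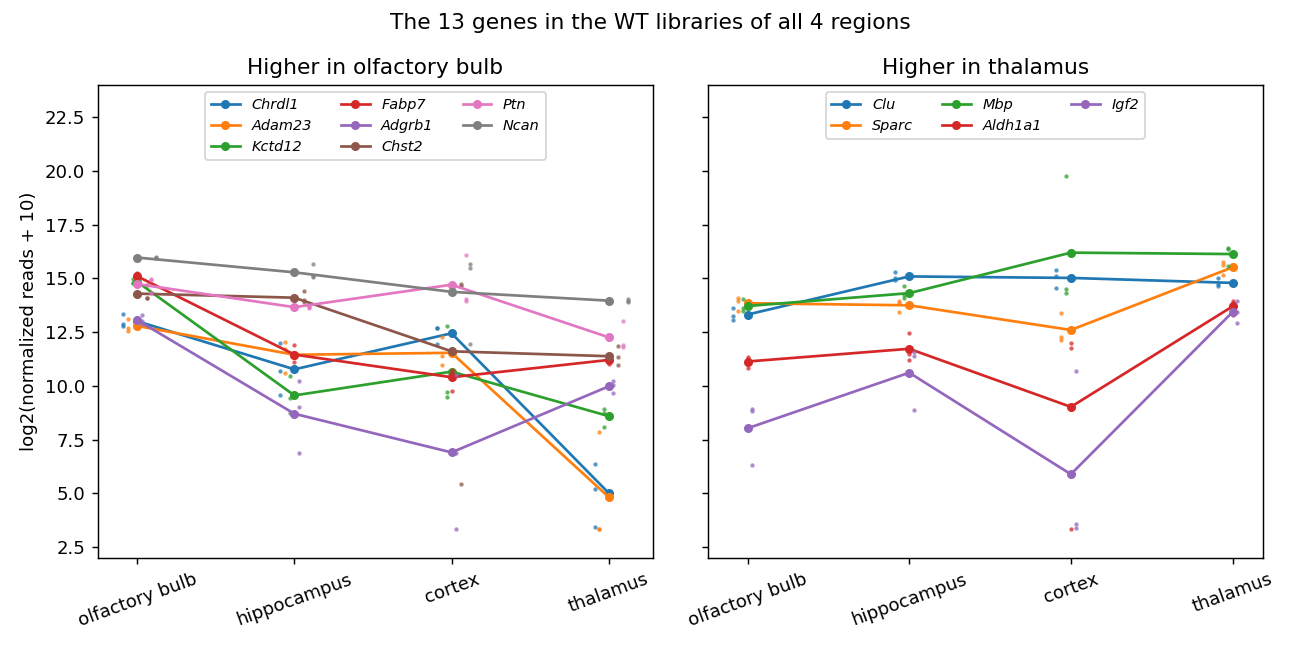
Levels of the 13 genes in the WT libraries of 4 regions as log2(normalized reads + 10), with small points for libraries and lines joining the means of 3 libraries. Kctd12, Fabp7 and Adgrb1 were highest in olfactory bulb alone, Chrdl1 and Adam23 were lowest in thalamus, and Sparc, Aldh1a1 and Igf2 were highest in thalamus.

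The knockout libraries of the same regions share no library with this comparison and gave a second look at its direction. Thalamus KO replicate 3 stood apart with few reads and is left out unless stated. In KO, 48 of the 51 genes were again higher in olfactory bulb and 25 of the 29 again higher in thalamus, where 60.1% of all genes tested lay above 0. With thalamus KO replicate 3 the counts were 49 and 18, and 76.0% of all genes lay above 0. The median KO difference was 2.82 for the 51 genes and -1.60 for the 29, and 0.41 over all genes. KO groups did not overlap in the same direction for 39 of the 51 and 16 of the 29, against 14.7% and 8.08% of all genes over the same 5 KO libraries. Kctd12 gave 3.82 in KO, Fabp7 2.90, Ncan 2.36, Chrdl1 6.88, Clca3a1 8.15 and Frzb 7.79. On the thalamus side Mbp gave -3.07, Igf2 -5.66, Aldh1a1 -2.18, Clu -1.80 and Sparc -1.19. With thalamus KO replicate 3, Aldh1a1 and Sparc turned to 1.15 and 2.83. The difference between genotypes was tested as an interaction with thalamus KO replicate 3 included. Of 9051 genes, 0 passed (0%; limma, smallest adjusted p 0.902, 373 genes at an unadjusted p under 0.05). Without that library 0 passed as well (limma, 483 genes at an unadjusted p under 0.05). With it, interaction standard errors were 1.69 for Kctd12, 2.66 for Fabp7 and 3.08 for Ncan, so a change with genotype could be missed. The 0 does not show that the region difference was the same in both genotypes.

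**Figure D5:**
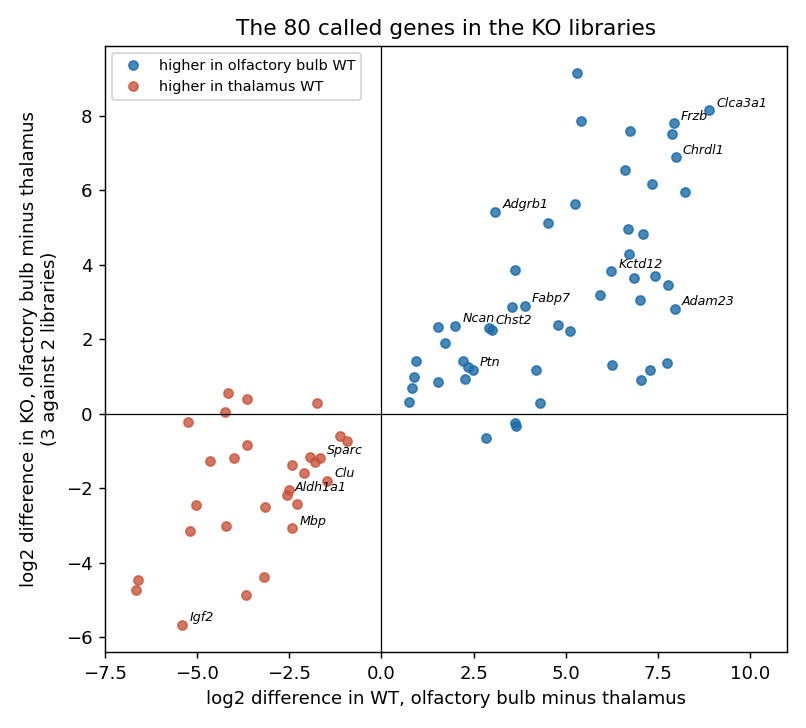
The log2 difference between olfactory bulb and thalamus of the 80 called genes in WT (horizontal axis, 3 against 3 libraries) and in KO without thalamus KO replicate 3 (vertical axis, 3 against 2 libraries). Of the 51 genes higher in olfactory bulb WT (blue) 48 lie above 0 in KO, and of the 29 higher in thalamus WT (red) 25 lie below.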

How the data were processed

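Per the labels' protocols, libraries were built from 10 ng of sorted-cell RNA with a Revelo high-sensitivity kit and 8-bp single indices. STAR 2.5.0a and the mouse build mm10 (GRCm38) stand in the submitters' processing notes, beside DESeq2 1.20.0, R 3.5.2, FastQC 0.10.1 and MultiQC 0.9. Which program counted reads, on which annotation and with which strand setting is not given in the sources used here. The deposited signal values are reads divided by 1 size factor per library: all were whole multiples of the library's smallest value within 0.001. Of 24421 entries, 27 named as dates were left out.

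Genes were tested with limma 3.58.1 in R 4.3.3 (lmFit, eBayes with trend and robust) on log2(value + 10), which understates changes of low genes, with a Benjamini-Hochberg adjusted p under 0.05. The prior spread dominated (median total degrees of freedom 4883), so most genes were judged by the spread of genes of like abundance. The smallest total was 5.35, so genes with a similar ratio of difference to SE could differ widely in p. Alternatives were other pseudocounts, filters, scalings, groups of libraries and spread models, each library left out, and voom, edgeR 4.0.16 and DESeq2 1.42.0 on recovered reads. Those count tests used 5 libraries. Thalamus WT replicate 1 was left out by choice, because 1 read was worth 0.993 there, a step close to 1. Its values were whole multiples of that step, as in the other libraries. CPM, library totals and the counting floor were computed from the reads of every library, thalamus WT replicate 1 included. The scripts were tested on simulated counts. Replicate numbers of the titles did not pair the libraries.

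Gene lists and members were chosen with earlier results of these data known. Genes were named if among the 15 with the smallest adjusted p per direction, if among the 10 with the largest non-overlapping differences per direction at a mean of 1000 or more, if in the NFI or patterning lists, or if called, largest or most abundant in another list. Markers and other genes outside the rule were chosen after their values were seen. Some genes are not reported here. Gene positions are from GENCODE vM21.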

Additional observations from a re-analysis of the deposited data

How the results depend on the processing

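Counts are given as genes higher in olfactory bulb and genes higher in thalamus, against 51 and 29 as reported. They were 29 and 16 with a pseudocount of 1, 6 and 1 without a filter on low values (14012 genes), 35 and 4 with all 12 WT libraries in the fit, 93 and 34 with 11 of them (without cortex WT replicate 3), 29 and 3 with 24 libraries and 60 and 18 with 22. On the recovered reads of 5 libraries they were 13 and 14 in limma-voom, 21 and 6 in edgeR with either scaling, and 438 and 128 in DESeq2. Without the abundance trend in the prior they were 7 and 0 (859 genes at an unadjusted p under 0.05 in limma), and 26 and 14 with a prior that was not robust. Pseudocount 100, a mean of at least 50, TMM, upper-quartile factors and array weights gave 43 to 52 and 24 to 30. With each library left out they ranged from 9 to 48 and from 10 to 20, and with the same 9051 genes tested from 12 to 51 and from 12 to 20. The last set of repeats and both prior settings were chosen after seeing the data. With the replicate number as a block the counts were 50 and 30. Same-numbered libraries did not deviate together (correlations 0.0023, -0.0023 and -0.016). Under the block, 0 genes passed in the test between genotypes.

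No gene was called in all 30 alternatives. Of the called genes, 11 miss the filter without an olfactory bulb library, because they are at 0 in thalamus. With the same genes tested, 9 and 6 genes were called whichever library was left out, adding Clca3a1 and Atp1b2. Directions turned for genes that were not called. Nfia was -0.0049 with TMM, -0.039 with array weights and -0.17 to 0.35 with a library left out. Nfib was -0.23 in voom and edgeR with TMM, -0.27 in edgeR with DESeq2 factors and in DESeq2, and -0.21 to 0.49 with a library left out. Tcf7l2 was -0.0079 in edgeR with DESeq2 factors and in DESeq2, and -0.47 to 0.62 with a library left out. Gja1 ranged from -0.30 to 0.031 and Gfap from -1.23 to 0.022. The cause was not tested. Standard errors had a median of 1.56, so for most genes even large differences could miss the threshold with 3 libraries a group.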
